A study of Mus musculus with 4 samples.

Results

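Cyclins are proteins that accumulate and are destroyed in step with the cell cycle, and cyclin-dependent kinases (Cdks) are the enzymes they switch on. D-type cyclins link growth signals to entry into the cycle, E-type cyclins act with Cdk2 at the start of DNA synthesis, cyclin A2 acts with Cdk2 and Cdk1 in S phase and G2, and B-type cyclins act with Cdk1 to drive mitosis. Transcription of the E, A and B cyclins and of Cdk1 is largely limited to cycling cells, whereas the D cyclins are set by cell type and by signals from outside. Most plasma cells are thought to have left the cycle, while the plasmablasts that precede them divide.

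The genes described are 10 cyclins and kinases chosen by name: Ccnd1, Ccnd2, Ccnd3, Ccne1, Ccne2, Ccna2, Ccnb1, Ccnb2, Cdk1 and Cdk2. Of these, 9 are paired with at least 1 probe set in the platform annotation, 22 probe sets in all out of 34945 that name a single gene; Ccnb1 was not analysed here. A probe set is a group of short probes on the array that together report 1 transcript. Of the 22, 20 lay above the low-signal filter (a signal of about 9.51). Each of the 9 genes was among the 12645 tested, by its brightest probe set. The 10 genes were chosen with earlier results of these data known, so the counts below describe them and are not an independent test.

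RNA came from IgA+ cells of the small intestine of untreated female Balb/c mice aged 9 weeks, divided into a CD11b+ and a CD11b- fraction (CD11b is the alpha M integrin chain). Titles mark every sample WT, and no deletion or transgene is named. Each fraction has 2 arrays, and each labelling kit holds 1 array of both fractions: for replicate 1, 1 µg of RNA went into the One-Cycle kit, and for replicate 2, 0.1 µg into the 3' IVT Express kit. The labels do not say whether the arrays came from separate animals, pools of animals or separate sorts, so every p-value speaks only of how these samples scatter, and that scatter may be technical. With so few arrays, all values are imprecise.

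The labels of the cells went with their markers. Itgam, the gene of CD11b, gave signals of 28.3 and 15.8 on the CD11b- arrays against 189 and 109 on the CD11b+ arrays (One-Cycle first, then 3' IVT Express, here and below). Igha, Jchain and Mzb1, genes of antibody assembly and of the plasma cell, each had signals between 8543 and 12633 on every array. Of 9 plasma cell genes tested, though, 8 were lower in the CD11b+ array of both kits. The median log2 difference of the 9 was small, at -0.10, where the quartiles of all genes were -0.24 and 0.23. Sdc1 was read by a probe set that the array marks as open to cross-hybridisation. Sdc1 gave 5626 and 5941 in the CD11b- against 3472 and 4155 in the CD11b+ arrays (log2 -0.61). It was the only 1 of the 9 called lower with the labelling kit as a block (limma adjusted p = 8.98e-06, and 0.546 without the block). The limits of the blocked model are given below. Markers of other cells were present too, and some moved with the fraction. Over all genes tested, 31.6% were higher and 30.5% lower in the CD11b+ array of both kits. Of 12 epithelial genes tested, 11 were lower with both kits, and their summed signal ran from 4321 to 4456 in the CD11b- and from 1707 to 2387 in the CD11b+ arrays. Of 9 T and NK cell genes, 5 were lower with both kits and 1 was higher, with sums from 1637 to 4319 against 1191 to 2322. With the block, limma called 9 of the 12 epithelial and 4 of the 9 T and NK cell genes lower. In both lists 0 were called higher. Of all genes tested, 4.14% were called lower and 3.73% higher. The sums of 7 B cell and germinal centre genes were 285 to 502 against 318 in both CD11b+ arrays, those of 7 macrophage and monocyte genes 349 to 419 against 477 to 615, and those of 7 stromal and endothelial genes 147 to 223 against 170.1 to 201. Of the leading markers, Krt8 and Epcam of epithelium had signals from 253 to 952, Gzma of cytotoxic cells from 743 to 2420, and none of these 3 was near 0. Of the 7 macrophage and monocyte genes, 5 were higher with both kits and 2 lower. Among them Itgax had a log2 difference of 0.85, C1qb of 1.16 and Cd14 of 0.73. With the labelling kit as a block, their limma adjusted p-values were 0.0132, 0.0527 and 0.134. Csf1r and Adgre1 were the 2 lower ones, both at -0.11 (limma adjusted p = 0.867 and 0.891 with the block). C1qa and Cx3cr1 lay below the low-signal filter on average, although C1qa read 49.6 on the CD11b+ One-Cycle array. Mybl1 of germinal centre cells lay below the filter too. For beta-actin, the control probes at the 3' end over those at the 5' end, a sign of RNA shortening, gave ratios of 1.90 and 1.84 in the CD11b- and 1.43 and 1.61 in the CD11b+ arrays. The part of these other cells and of RNA quality in the results on Sdc1 and on cyclins was not tested. In bulk RNA, a change in the number of cells of a type and a change in RNA per cell cannot be told apart.

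The comparison of CD11b+ with CD11b- cells asks whether the 2 fractions differ in the genes that mark each phase of the cycle. Ccne2, Ccna2, Ccnb2 and Cdk1 were higher in the CD11b+ array of both kits, by 1.70-fold to 2.55-fold on average, and Cdk2 was higher by 1.31-fold. In all, 5 of the 9 genes were higher with both kits and 2 lower, where 31.6% and 30.5% of all genes were. No D cyclin was higher with both kits at its brightest probe set, and Ccnd1 was lower with both. With limma fitted on all 4 arrays without regard to kit, 0 of the 9 genes passed at an adjusted p under 0.05, against a background of 0% of the 12645 genes in either direction. At an unadjusted p under 0.05, Ccna2 and Ccne2 were higher, 2 of 9, against 3.14% of all genes higher and 3.52% lower. With the labelling kit as a block, limma called 4 of the 9 genes higher (Ccne2, Ccna2, Ccnb2 and Cdk1) and 0 lower, against 3.73% of all genes higher and 4.14% lower. That call rests on 1 residual degree of freedom per gene and on a prior spread shared between genes of like signal: without the trend in that prior, the blocked model called 0 of the 9 genes and 0% of all genes. On the signals as deposited it called 7 of the 9 higher, but also 28.9% of all genes. Both CD11b+ arrays lay above both CD11b- arrays for 5 of the 9 genes, where 18.3% of all genes did so, and below them for 1, where 17.3% did. The median log2 difference over the 9 genes was 0.38, where the median of all genes tested was 0.0027 and the quartiles were -0.24 and 0.23.

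**Figure D1:**
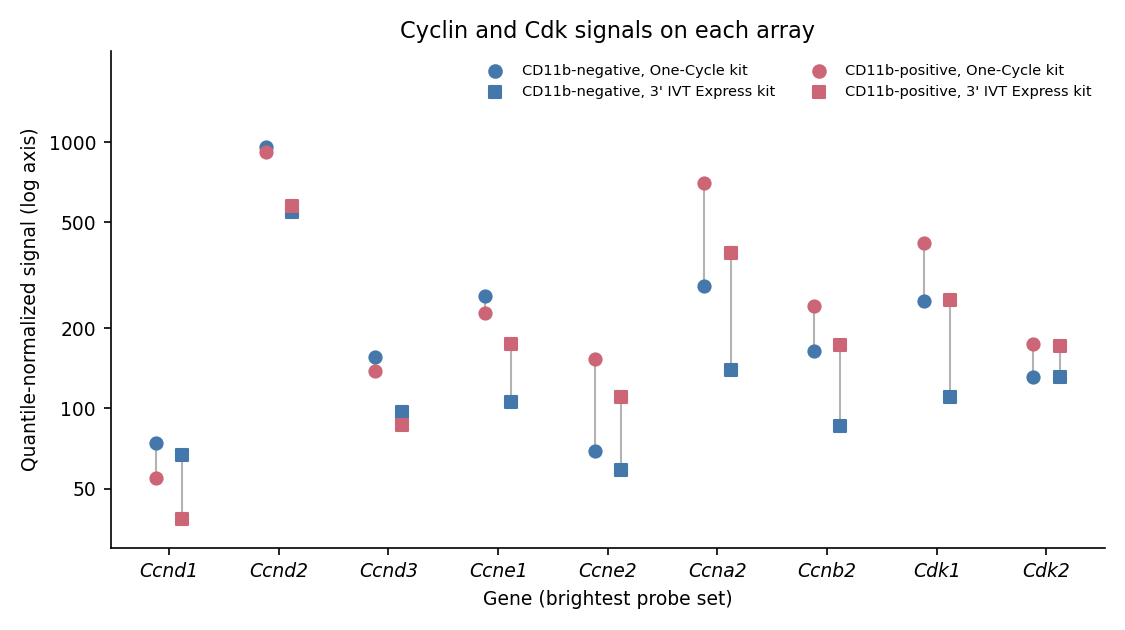
Quantile-normalized signal of the brightest probe set of each gene on a log axis, for the 4 arrays; circles are One-Cycle and squares 3' IVT Express arrays, blue is CD11b- and red CD11b+, and grey lines join the arrays of 1 kit. Ccne2, Ccna2, Ccnb2 and Cdk1 have red above blue in both kits, while Ccnd2 and Ccnd3 have the symbols of each kit close together.

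Among the D cyclins, which bind Cdk4 and Cdk6 in G1, Ccnd1 had signals of 74.4 and 66.6 on the CD11b- arrays and of 54.9 and 38.4 on the CD11b+ arrays. Both CD11b+ arrays were below both CD11b- arrays. The means were 46.7 ± 11.6 against 70.5 ± 5.52 (SD, n = 2 each), a log2 difference of -0.58 ± 0.30 (SE; limma adjusted p = 0.817, and 0.198 with the block). It was -0.42 with the One-Cycle and -0.75 with the 3' IVT Express kit. The other 2 probe sets of Ccnd1 went the same way, at -0.85 and -0.72, so all 3 were lower with both kits. Ccnd1 is also made by crypt epithelium, and the epithelial markers given above were lower in the same arrays. The part of epithelium in the values of Ccnd1, as in those of the other cyclins and kinases, was not tested.

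Ccnd2, a D cyclin that B cells switch on when stimulated, gave signals of 957 and 545 in the CD11b- and 915 and 574 in the CD11b+ arrays. At this probe set, its brightest, the fractions overlapped completely, and the arrays separated by kit instead. Not all of its probe sets shared the direction of that kit difference. Its log2 difference was 0.0049 ± 0.33 (SE; limma adjusted p = 1.00, and 0.991 with the block), with a 95% interval from -0.22 to 0.23 in the blocked model. The 7 probe sets of Ccnd2, all above the filter, did not give 1 answer. The next brightest gave 0.10, -0.08 and 0.24, and the 3 dimmest gave 0.51, 0.43 and 0.68. In all, 4 of the 7 were higher with both kits and 1 was lower. The mean over all probe sets was 0.27. Of the 2 farthest from 0, one at 106 and 176 against 133 and 289 is named by the array as able to bind more than 1 transcript, and the other was dim, at 24.9 and 18.7 against 41.0 and 32.3.

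Ccnd3, the D cyclin of dividing germinal centre B cells, gave 157 and 97.0 in the CD11b- and 138 and 87.01 in the CD11b+ arrays. Each CD11b+ array was slightly below its kit partner, and the fractions overlapped. The log2 difference was -0.16 ± 0.34 (SE; limma adjusted p = 0.962, and 0.713 with the block), and it turned to 0.17 without CD11b- replicate 1 and to 0.16 without CD11b+ replicate 2. A second, dimmer probe set gave -0.51 and 0.06 within the kits, and another lay below the filter. With an array left out, here and below, the fractions no longer hold the same kits, and the difference between kits enters the value.

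The E cyclins, which start DNA synthesis with Cdk2, gave unlike values. Ccne2 had signals of 69.2 and 58.8 on the CD11b- arrays against 153 and 111 on the CD11b+ arrays. Both CD11b+ arrays were above both CD11b- arrays, with a gap of 0.66 log2 units between the nearest, the widest gap of the 9 genes. The means were 132 ± 29.9 against 64.0 ± 7.41 (SD, n = 2 each), a 2.00-fold difference (log2 1.00 ± 0.27, SE; limma adjusted p = 0.61, and 0.00217 with the block), with 1.11 and 0.88 within the kits. Ccne1 gave 263 and 105 in the CD11b- against 229 and 174 in the CD11b+ arrays. It was lower with the One-Cycle kit (-0.20) and higher with the 3' IVT Express kit (0.71), and its mean of 0.25 ± 0.43 (SE; limma adjusted p = 0.955, and 0.501 with the block) turned to -0.40 without CD11b- replicate 2 and stood at 0.90 without CD11b- replicate 1. The array marks that probe set as open to cross-hybridisation. The other probe set of Ccne1, dimmer but not so marked, read 40.7 and 49.4 against 47.0 and 78.3, at 0.19 and 0.63 within the kits. The change of Ccne2 exceeded that of Ccne1 by 1.31 log2 units with the One-Cycle and by 0.18 with the 3' IVT Express kit.

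Ccna2, the cyclin of S phase and G2, showed the widest difference of the 9 genes. Its signals were 289 and 139.7 on the CD11b- arrays against 700.4 and 382 on the CD11b+ arrays, so the fractions did not overlap. The means were 541 ± 225 against 214 ± 106 (SD, n = 2 each), a 2.55-fold difference on the log2(signal + 3) scale. The log2 difference of 1.35 ± 0.42 (SE; limma adjusted p = 0.614, and 8.62e-08 with the block) stood at the 99.3rd percentile of all genes. It was 1.27 and 1.43 within the kits, and Ccna2 was the only 1 of the 9 genes at least 2-fold higher with both kits, where 0.815% of all genes were. The second probe set read 164 and 109 against 310.3 and 248, a log2 difference of 1.04 (0.91 and 1.16 within the kits). Without CD11b- replicate 2, whose Ccna2 signal was the lowest of the 4, the difference was 0.83.

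Ccnb2, a B-type cyclin that activates Cdk1 for mitosis, gave 164 and 85.8 in the CD11b- against 241 and 174 in the CD11b+ arrays. The nearest arrays of the fractions, CD11b+ with the 3' IVT Express kit and CD11b- with the One-Cycle kit, were only 0.08 log2 units apart. The means were 208 ± 47.8 against 125 ± 55.6 (SD, n = 2 each), a 1.70-fold difference (log2 0.77 ± 0.35, SE; limma adjusted p = 0.781, and 0.00434 with the block), with 0.55 and 0.99 within the kits. It was 0.31 without CD11b- replicate 2 and 1.23 without CD11b- replicate 1.

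Cdk1, the kinase of mitotic entry, had signals of 252 and 111 on the CD11b- arrays and of 417 and 256 on the CD11b+ arrays. As for Ccnb2, the lower CD11b+ array barely cleared the higher CD11b- array, by 0.02 log2 units, while the kits differed in level. The means were 337 ± 114 against 182 ± 100.2 (SD, n = 2 each), a 1.94-fold difference (log2 0.95 ± 0.42, SE; limma adjusted p = 0.77, and 9.72e-05 with the block), with 0.72 and 1.19 within the kits. It was 0.37 without CD11b- replicate 2, 1.54 without CD11b- replicate 1 and 0.61 without CD11b+ replicate 1. Cdk2, the partner of cyclins E and A, was the steadiest of the 9 genes: 131.6 on both CD11b- arrays against 174 and 171 on the CD11b+ arrays. Its log2 difference was 0.38 ± 0.21 (SE; limma adjusted p = 0.842, and 0.196 with the block), at 0.40 and 0.37 within the kits and from 0.37 to 0.40 on leaving out any array. A second probe set of Cdk2 read from 0.095 to 3.73, below the filter.

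The change of Cdk1 exceeded that of Cdk2 in both kits, by 0.32 and 0.82 log2 units and by 0.57 on average, with an SD of 0.35 between the kits. An exact permutation test over the 4 arrays, 2-sided and without regard to kit, gave p = 0.667; since 0.33 is the smallest p that 2 arrays against 2 allow, this test could not have passed and does not decide whether the 2 kinases differ. The excess of Cdk1 over Cdk2 was -0.014 without CD11b- replicate 2 and 1.15 without CD11b- replicate 1. It was 0.23 without CD11b+ replicate 1 and 0.90 without CD11b+ replicate 2. The difference between kits enters these values, and Cdk1 differed between the kits where Cdk2 barely did, as given below.

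**Figure D2:**
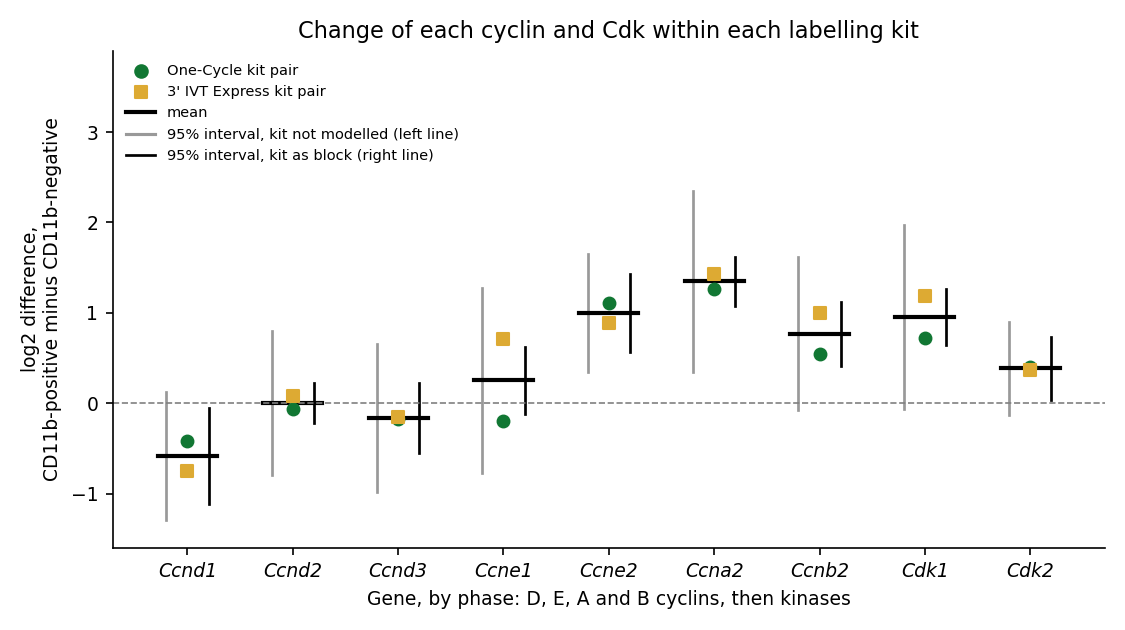
Log2 difference of CD11b+ minus CD11b- for each gene, ordered by phase; circles and squares are the pair of arrays of each kit, thick bars their mean, and thin lines 95% intervals of limma without (left) and with (right) the kit as a block. The intervals with the block lie above 0 for Ccne2, Ccna2, Ccnb2, Cdk1 and, narrowly, Cdk2, and the interval of Ccnd1 lies below 0; these intervals are not adjusted for the number of genes.

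Side by side, the median log2 difference was -0.16 over the 3 D cyclins, 0.62 over the 2 E cyclins, 1.35 for the A cyclin, 0.77 for the B cyclin and 0.67 over the 2 kinases. The change of Ccna2 exceeded those of Ccnd1, Ccnd2 and Ccnd3 by 1.69, 1.33 and 1.44 log2 units with the One-Cycle kit and by 2.18, 1.36 and 1.58 with the 3' IVT Express kit. That of Ccnb2 exceeded them by 0.96, 0.61 and 0.72, and by 1.74, 0.92 and 1.15. So at the brightest probe sets the A and B cyclins had the larger change than each D cyclin in all 12 of these pairings within a kit. The pairings rest on the same 4 arrays and were not tested. They also depend on the probe set. With the One-Cycle kit, 2 dim probe sets of Ccnd2 stood at 0.93 and 0.66, above Ccnb2 at 0.55. With the 3' IVT Express kit those 2 stood at -0.08 and 0.70, below Ccnb2 at 0.99. No other probe set of a D cyclin exceeded Ccnb2 within a kit. Levels differed between the kits as well. At the brightest probe sets, 8 of 9 genes were lower with 3' IVT Express in both fractions, against 32.2% of all genes. Some other probe sets of Ccnd1, Ccnd2 and Ccne1 were higher with that kit in both fractions. For the second brightest of Ccnd2, signals were 569 (CD11b-) and 645 (CD11b+) with the One-Cycle kit. With the 3' IVT Express kit they were 853 and 865. For Ccna2 the kits differed by -1.03 and -0.87 log2 units in the CD11b- and CD11b+ fraction. For Cdk1 they differed by -1.17 and -0.70, and for Cdk2 by 0.00038 and -0.03. Kit, RNA amount and replicate change together here, so their parts in these differences cannot be told apart.

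**Figure D3:**
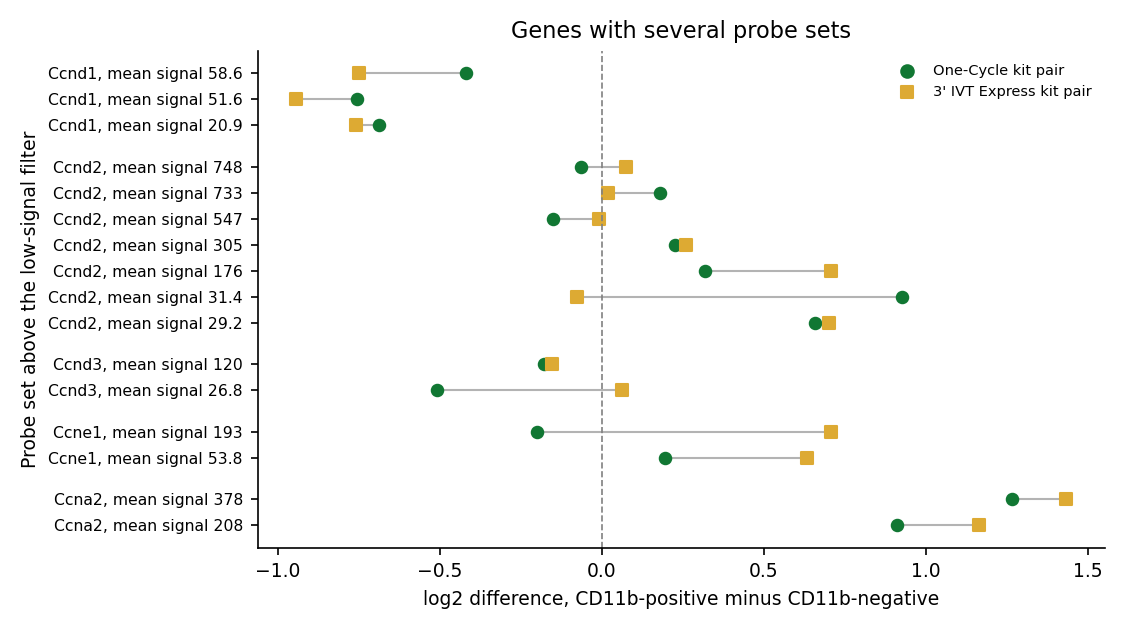
Log2 difference of CD11b+ minus CD11b- for each probe set above the low-signal filter of the 5 genes that have several, with circles for the One-Cycle and squares for the 3' IVT Express pair. The 3 probe sets of Ccnd1 lie left of 0 and both of Ccna2 right of it, while those of Ccnd2 run from near 0 for the bright ones to 0.68 for the dimmest.

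Promoters of genes that peak in G2 and mitosis are known for CCAAT boxes, bound by NF-Y, and for the cell cycle homology region (CHR), while genes of the G1 to S transition are known for E2F sites. RefSeq promoter windows, each 250 bases before to 50 after a start (GRCm38.p6), matched 6 of the 10 gene symbols. They were searched on both strands for CCAAT, for TTTGAA as the CHR, and for TTTCGCGC, TTTGGCGC, TTTCCCGC or TTTGCCGC as E2F sites; these motifs do not overlap one another in the stretches printed. The 150 bases before the start are shown for the B cyclin and for both kinases, because these genes were higher by unlike amounts, with matches on either strand in capitals. The windows are chr9:70421555-70421704 for Ccnb2, chr10:69352913-69353062 for Cdk1 and chr10:128705052-128705201 for Cdk2, all on the minus strand.
Ccnb2: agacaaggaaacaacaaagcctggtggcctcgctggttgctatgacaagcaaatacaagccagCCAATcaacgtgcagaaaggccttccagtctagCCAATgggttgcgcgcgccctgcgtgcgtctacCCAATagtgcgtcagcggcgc
Cdk1: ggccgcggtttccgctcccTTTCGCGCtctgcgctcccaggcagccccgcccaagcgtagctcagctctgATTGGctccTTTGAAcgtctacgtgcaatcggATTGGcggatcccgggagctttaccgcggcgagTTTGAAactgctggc
Cdk2: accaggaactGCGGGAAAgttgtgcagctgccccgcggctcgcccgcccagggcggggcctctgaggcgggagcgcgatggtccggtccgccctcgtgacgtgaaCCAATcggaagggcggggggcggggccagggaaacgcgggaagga
Ccnb2 has 3 CCAAT boxes here, beginning 87, 54 and 21 bases before the start, and no TTTGAA or E2F match in these 150 bases; its whole window holds 2 TTTGAA, 1 upstream of this stretch and 1 past the start. Cdk1 has 2 CCAAT boxes on the opposite strand (printed as ATTGG), 2 TTTGAA and 1 E2F match, and Cdk2 has 1 CCAAT box and 1 E2F match (printed as its reverse complement) with no TTTGAA. In all 32851 promoter windows of the table, the same 150 bases hold CCAAT in 24.5%, TTTGAA in 9.07% and an E2F match in 1.24%. Over the whole 300 bases these shares are 37.4%, 17.9% and 2.26%. In the whole windows of the other genes, Ccnb1 has 2 CCAAT boxes, Ccne1 has none of the motifs, and Ccnd3 has 2 windows, 1 with a single CCAAT box and 1 with none. A match is a description of the letters and not a site, and the array data hold no measure of binding.

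The other genes of the cyclin and Cdk system were taken as 5 lists, also chosen with earlier results of these data known. Of 8 activators and adaptors, 5 were higher with both kits and 1 lower, where 31.6% and 30.5% of all genes were. With the block 3 were called higher (Cks1b, Cks2 and Cdkn3) and 0 lower, where 3.73% and 4.14% of all genes were. As for the cyclins, no gene was called with the block once the trend in the prior was left out. The median of the 8 genes was 0.56. Cks1b, a small subunit that docks Cdks to their substrates, gave 1114 and 579 in the CD11b- against 2189 and 1396 in the CD11b+ arrays, a 2.17-fold difference (limma adjusted p = 0.618, and 2.19e-08 with the block). Its relative Cks2 gave 312 and 311 against 501 and 466 (1.55-fold; limma adjusted p = 0.61, and 0.0013 with the block). The Cdk phosphatase Cdkn3 gave 45.01 and 45.5 against 97.1 and 78.2 (1.87-fold; limma adjusted p = 0.61, and 0.0211 with the block). For all 3, both CD11b+ arrays lay above both CD11b- arrays, as they did for 18.3% of all genes. Cdc25c, the phosphatase that switches on Cdk1 for mitosis, read 15.3 and 12.6 against 35.9 and 39.6 (2.41-fold; limma adjusted p = 0.61, and 0.0501 with the block), and Cdc25b 141 and 143 against 171 and 234 (log2 0.48). The member lower with both kits was Cdc25a, which acts at the G1 to S transition, at -0.14.

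The kinases that D cyclins bind were not called by either model. Cdk4 read 202 and 215 in the CD11b- against 232 and 247 in the CD11b+ arrays (log2 0.19; limma adjusted p = 0.933, and 0.535 with the block), and Cdk6 59.5 and 101 against 91.6 and 128 (0.47; 0.889, and 0.202 with the block). Ccnf, a cyclin-like subunit of a ubiquitin ligase of G2, read 38.1 and 29.6 against 56.3 and 46.7 (0.57; 0.83, and 0.304 with the block). All 3 were higher with both kits, where 31.6% of all genes were. Ccna1 and Ccnb3, cyclins of the germ line, lay below the filter. Of 7 Cdk inhibitors, 0 were called by either model, where the blocked model called 3.73% of all genes higher and 4.14% lower. The median was 0.11. With both kits 3 were higher and 2 lower, where 31.6% and 30.5% of all genes were. The higher ones were Cdkn2a, at 9.00 and 15.6 against 14.7 and 23.5 (log2 0.54), near the low-signal filter, and Cdkn1c and Cdkn2c, at 0.11 and 0.19. The lower ones were Cdkn1a (p21), at 71.1 and 112 against 49.1 and 68.3 (log2 -0.60), and Cdkn2b (p15), at 57.1 and 72.3 against 39.9 and 35.5 (-0.73; limma adjusted p = 0.731, and 0.124 with the block). Cdkn2c (p18), an inhibitor of Cdk4 and Cdk6 that plasma cells use on leaving the cycle, read 300.1 and 313 against 354 and 346, and Cdkn2d 41.9 and 77.8 against 65.6 and 74.1, higher with one kit only.

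Of 15 cyclins and Cdks that act in transcription rather than in the cycle, 4 were higher and 5 lower with both kits. Over all genes these shares were 31.6% and 30.5%. The median was -0.07, and 0 were called by either model, where the blocked model called 3.73% of all genes higher and 4.14% lower. Ccnh, which with Cdk7 forms the Cdk-activating kinase, had the smallest p, at 177 and 208 against 264 and 264 (log2 0.46; limma adjusted p = 0.777, and 0.0578 with the block). Of the others named, Ccnk stood at 0.38, Ccnc at 0.27, Cdk9 at -0.21 and Ccnl2 at -0.22. Of 14 other cyclins and Cdks, 3 were higher and 4 lower with both kits, against the same 31.6% and 30.5% of all genes. The median was -0.02, and again 0 were called. Among these, Cdk14 stood at 0.95, Ccng1 at 0.35, Ccng2 at 0.31, Cdk16 at -0.26 and Cdk5r1 at -0.63. Their blocked limma adjusted p-values ran from 0.0633 to 0.247. Cdk14 read 9.80 and 33.4 in the CD11b- against 33.8 and 44.4 in the CD11b+ arrays, at 1.52 and 0.38 within the kits. The lowest of these signals was near the low-signal filter.

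**Figure D4:**
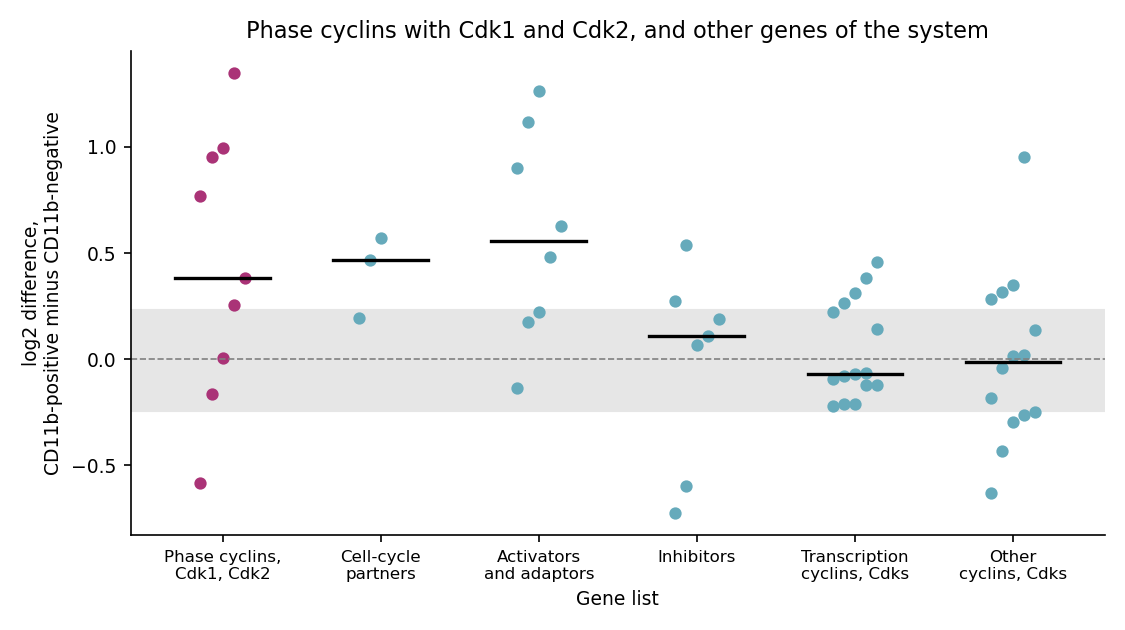
Log2 difference of CD11b+ minus CD11b- for the 9 cyclins and kinases with data and for the tested genes of 5 lists of the same system; points are genes, bars medians, and the grey band the quartiles of all genes tested (-0.24 to 0.23). The medians are 0.38 for the 9 genes, 0.47 for the cell-cycle partners, 0.56 for activators and adaptors and between -0.07 and 0.11 for the other 3 lists.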

How the data were processed

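The authors deposited a linear intensity for each probe set. Per the submitters' processing notes it was made with Affymetrix Expression Console and MAS5; for settings, scaling target and versions, nothing is given in the sources used here. Array medians ran from 14.7 to 18.3 and 2% trimmed means from 48.6 to 90.3, so signals were quantile-normalized over all probe sets except 64 controls. After adding a pseudocount of 3 (the 20th percentile of deposited signals), log2 was taken, so fold changes understate those of weak genes. Of 45101 probe sets, 34945 name 1 gene, 932 several and 9160 are unnamed here. Those with a mean log2 signal above the 40th percentile were kept, with the brightest per gene. The 12645 genes were fitted in R 4.3.3 by limma 3.58.1 (2-sided, eBayes with trended prior, p-values adjusted by Benjamini-Hochberg over all genes), without and with the labelling kit as a block, and tested on simulated data. Samples were grouped by the source label; replicate numbers follow deposit order, and the pairing comes from the kits named in the labelling protocols. Deviations of same-kit arrays from their fraction means correlated at r = 0.387 across genes.

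The 10 genes and the lists were chosen with earlier results of these data known. Named were every one of the 10 genes with data, Itgam, and up to 5 genes per pathway list, by smallest p without the block. Of the marker lists, genes among the 3 brightest were named. Cdc25a, Cdkn1c, Sdc1, C1qb, Cd14, Adgre1, C1qa, Cx3cr1, Mybl1, Ccna1 and Ccnb3 were named after their values were seen. Alternatives covered scaling, pseudocount, filter, probe set choice, block, trend and leaving out each array. Plasma cell, B cell, epithelial, T and NK cell, macrophage and stromal marker lists were used; of 9 plasma cell genes, the CD11b+ array of each kit was lower for 8, the median was -0.10 and 1 called lower with the block. Promoter sequences are RefSeq's.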

Additional observations from a re-analysis of the deposited data

How the results depend on the processing

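Across all genes, limma called 0 higher and 0 lower, and 472 and 524 with the replicate block, which is the labelling kit; on leaving out 1 array the counts ran from 0 to 2 higher and from 0 to 23 lower. Without the block, none of the 9 genes passed under any setting tried, and their smallest adjusted p on leaving out an array was 0.178, for Ccna2. With the replicate block 4 of 9 were called higher, against 3.73% of all genes. In models with the block that were added after seeing the data, this count was 7 on the signals as deposited and 0 without the trend, the cause of which was not tested. It was 6 after centring on the median, and it stayed at 4, the same genes, under 8 other settings. The share of all genes called higher moved as well. It was 28.9% on the signals as deposited, 13.7% after median centring and 0% without the trend. Under the 8 other settings it ran from 1.74% to 4.69%. The deposited scaling shifts the median of all genes by 0.42 and median centring by 0.21; values below are relative to that shift. The D cyclin median was -0.13 on deposited signals and after median centring, -0.18 with a common trimmed mean and -0.19 when probe sets of a gene were averaged. Averaging put the A cyclin at 1.19, and the kinase median was 0.95 without probe sets marked _s_, _x_ or _a_ (shared or possibly cross-hybridising sequence), where Cdk2 keeps only a probe set below the filter and Cdk1 stands alone. On leaving out an array, the medians ran from -0.50 to 0.17 (D), 0.24 to 1.01 (E), 0.83 to 1.87 (A), 0.31 to 1.23 (B) and 0.38 to 0.96 (kinases), and Cdk1 minus Cdk2 from -0.014 to 1.15. Signs turned for Ccnd2 (from -0.40 to 0.41), Ccnd3 (from -0.50 to 0.17) and Ccne1 (from -0.40 to 0.90); for Ccnd2 this was without CD11b+ replicate 1 (-0.33) or CD11b- replicate 2, and for Ccnd3 without CD11b+ replicate 2 (0.16) or CD11b- replicate 1. With 1 array left out, the fractions no longer hold the same kits, and the difference between kits enters these values. Low signals near background limit the dim probe sets of Ccnd1, Ccnd2 and Ccnd3.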
